A study of Mus musculus with 4 samples.

Results

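The Wnt pathway genes described here were all genes on the array whose symbols begin with Wnt, Fzd or Sfrp and a number, together with Dkk1 to Dkk4, Rspo1 to Rspo4, Nkd1, Nkd2, Axin1, Axin2, Lrp5, Lrp6, Wif1, Lef1, Tcf7l1, Tcf7l2, Ctnnb1, Apc, Rnf43, Znrf3, Notum, Lgr4, Lgr5, Lgr6 and Kremen1. Of 61 such symbols in the mouse annotation, 60 were matched to 76 probes, out of 21154 genes matched in all. The antisense gene Fzd10os was matched to no probe. Their transcripts were measured in thymospheres, free-floating bodies that grow from dissociated thymus in dishes to which cells do not attach. One group was grown from the thymus of C57Bl6/N mice aged 5 to 6 weeks (adult) and the other from C57Bl6/N embryos of embryonic day 14.5 (embryonic), with 2 samples in each group and 1 array for each sample. Both groups were kept for 7 days in medium with B27, hydrocortisone, insulin, EGF and bFGF, and no genotype or agent set them apart. Whole spheres were lysed, so fewer cells of a type and less RNA per cell cannot be told apart. Nothing in the labels says which arrays are biological and which are technical replicates, so a p-value measures only the spread between these samples.

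Wnt proteins are secreted, lipid-modified signals that bind Frizzled receptors together with the co-receptors Lrp5 and Lrp6. In the canonical branch the signal stops a destruction complex built on Axin and Apc from degrading beta-catenin, which then acts with TCF and LEF factors on target genes, while other branches steer cell polarity and movement. In the thymus, Wnt ligands made by epithelium and mesenchyme are known for acting on thymic epithelial cells, where Wnt4 is linked to expression of Foxn1, as well as on developing thymocytes. Soluble antagonists (Sfrp, Dkk, Wif1, Notum) limit the signal, and R-spondins raise it by clearing the ubiquitin ligases Rnf43 and Znrf3 from the cell surface.

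Embryonic thymospheres had more transcript of 6 Wnt ligands, among them Wnt4, Wnt7b and Wnt10a, of the receptor Fzd2, of the secreted proteins Dkk3, Sfrp1 and Sfrp2, and of the nuclear factor Tcf7l1. Adult thymospheres had more of Wnt10b, Wnt8b and Dkk4. Of the genes named here, Sfrp1, Sfrp2 and Dkk4 were not called under every scaling tried. Nor were Wnt5a, Wnt5b and Wnt6, the other ligands of the 6. Signals are given as log2 of the processed spot signal minus the 75th percentile of the array, so 0 is the 75th percentile and 1 unit is a doubling. A gene was tested if its probe was well above background, by the scanner software's own mark, on both arrays of 1 group or of both, and it was called at an adjusted p under 0.05 in limma over all 13667 genes tested. Of the 60 genes 38 were tested, 19 were called higher and 3 lower in embryonic spheres, and 16 were not called. Over all genes tested 36.0% were called higher and 17.4% lower, so that 19 and 3 of 38 can be read against these shares. The median difference, embryonic minus adult, was 1.11 over the 38 genes and 0.79 over all genes, and each difference below can be read against 0.79. The median of the 38 was also 1.11 with the 9 genes dim in 1 group at their lower bound. The order of the medians was not stable. Under another background correction (normexp) they were 0.39 over these genes and 0.42 over all genes. With a signal asked on all 4 arrays they were 0.73 over the 24 genes left and 0.97 over all genes. Both embryonic arrays lay above both adult arrays for 25 of the 38 (65.8%, against 61.6% of all genes measured on all 4 arrays) and below them for 7 (18.4%, against 22.5%).

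The counts moved with the scaling and rested on both adult arrays. Shares of all genes called under these alternatives are not given, so the counts show only how calls on these genes moved. With the tested genes of each array centred on their median, 8 of the 38 were called higher and 6 lower, and with all probes centred on their median 29 were higher and 3 lower. These scalings moved all genes, whose median difference was 0.14 under the first and 1.98 under the second. With no filter on dim probes 7 of the 19 were still called higher, namely Wnt4, Wnt6, Wnt7b, Wnt10a, Fzd2, Dkk3 and Tcf7l1. Under each of the 5 other scalings Wnt4, Wnt7b, Wnt10a, Fzd2, Dkk3 and Tcf7l1 were called higher and Wnt10b and Wnt8b lower. Without adult array 1 none was called, with 18 higher and 4 lower at an unadjusted p under 0.05 in limma, and without adult array 2 none was called, with 15 higher and 3 lower. The differences themselves stayed near the reported ones: the median over the 38 genes was 1.20 without adult array 1 and 1.10 without adult array 2, and Fzd2 stood at 2.83 and 2.54. In these fits the lone array of a group is assumed to vary like the other group. Without embryonic array 1, 18 were higher and 5 lower, and without embryonic array 2, 19 and 4. Of the 16 genes not called, Wnt9a, Wnt11, Tcf7l2 and Fzd9 kept the sign of their difference under all 5 other scalings, and the sign of the others turned under at least 1.

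**Figure D1:**
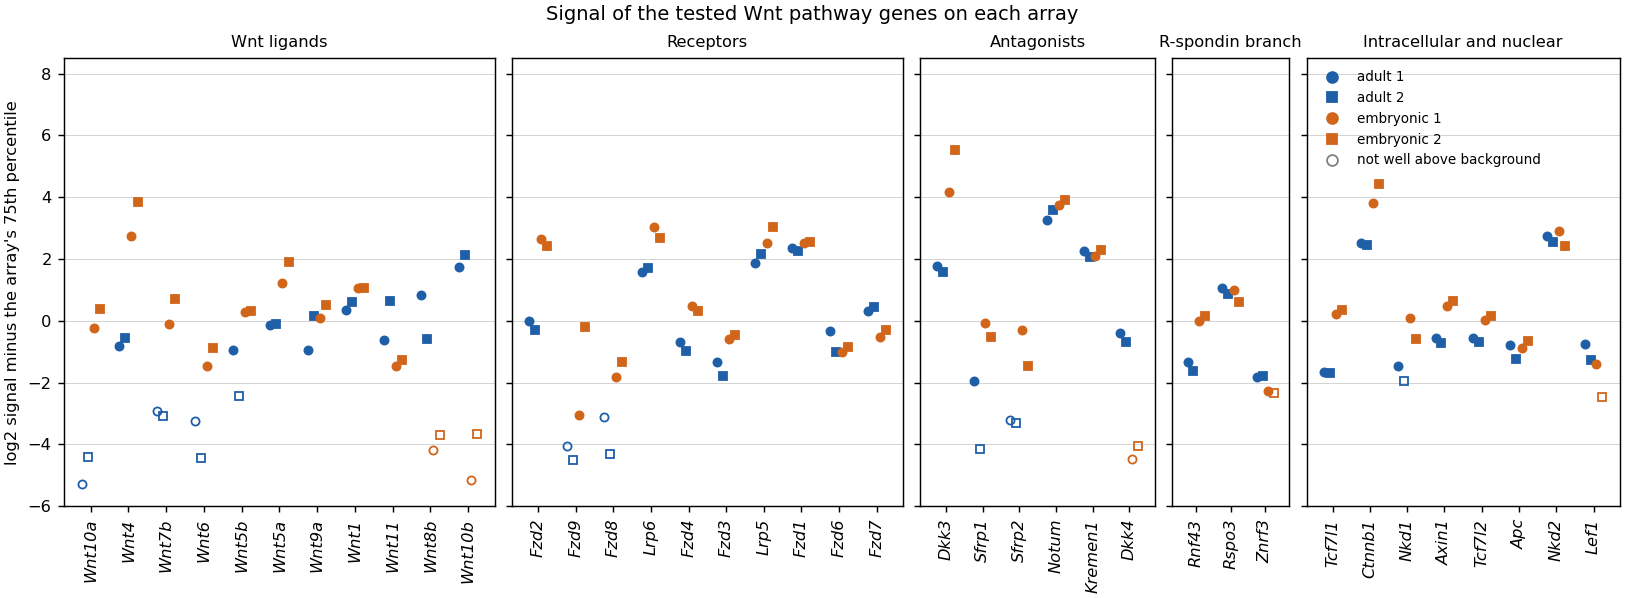
Normalised log2 signal (log2 signal minus the array's 75th percentile, vertical axis) of the 38 tested genes on the 2 adult (blue) and 2 embryonic (orange) arrays, grouped by role and ordered by difference; open symbols mark signals not well above background. Wnt4, Fzd2 and Dkk3 show both embryonic arrays more than 2 units above both adult arrays, and Wnt10b, Wnt8b and Dkk4 have open symbols on both embryonic arrays.

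The promoters of 5 genes that the results turn on are shown for their base composition and for letters that TCF and LEF factors are known to bind. Each runs from 250 bases before to 50 after the start in RefSeq's table for GRCm38.p6, which held promoters for 38 of the 60 genes (47 promoters) and none for Wnt7b, Wnt10a, Fzd2 or Dkk3. The letters CTTTGA and CTTTGT were searched on both strands and are in capitals, as read on the gene's strand. Wnt4 and Wnt6 rose in embryonic spheres, as did Tcf7l1, while Wnt10b and Wnt8b fell.
Wnt4, chr4:137277385-137277684, strand +: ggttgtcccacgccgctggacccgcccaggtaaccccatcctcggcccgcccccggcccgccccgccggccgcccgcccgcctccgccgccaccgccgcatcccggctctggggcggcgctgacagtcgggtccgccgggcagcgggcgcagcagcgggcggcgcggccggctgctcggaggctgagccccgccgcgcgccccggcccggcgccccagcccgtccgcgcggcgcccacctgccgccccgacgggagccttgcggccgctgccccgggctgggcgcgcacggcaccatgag
Wnt6, chr1:74771642-74771941, strand +: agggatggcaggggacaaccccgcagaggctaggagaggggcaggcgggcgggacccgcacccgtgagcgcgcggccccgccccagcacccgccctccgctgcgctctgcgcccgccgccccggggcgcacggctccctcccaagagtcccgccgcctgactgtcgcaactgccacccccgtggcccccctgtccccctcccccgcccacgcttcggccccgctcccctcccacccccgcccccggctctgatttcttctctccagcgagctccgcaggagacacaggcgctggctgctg
Tcf7l1, chr6:72788996-72789295, strand -: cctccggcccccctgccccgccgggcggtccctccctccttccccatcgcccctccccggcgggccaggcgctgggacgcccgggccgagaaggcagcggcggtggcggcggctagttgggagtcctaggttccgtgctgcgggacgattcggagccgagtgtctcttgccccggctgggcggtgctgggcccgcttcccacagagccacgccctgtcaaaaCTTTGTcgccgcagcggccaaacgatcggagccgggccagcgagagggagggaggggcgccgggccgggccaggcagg
Wnt10b, chr15:98778101-98778400, strand -: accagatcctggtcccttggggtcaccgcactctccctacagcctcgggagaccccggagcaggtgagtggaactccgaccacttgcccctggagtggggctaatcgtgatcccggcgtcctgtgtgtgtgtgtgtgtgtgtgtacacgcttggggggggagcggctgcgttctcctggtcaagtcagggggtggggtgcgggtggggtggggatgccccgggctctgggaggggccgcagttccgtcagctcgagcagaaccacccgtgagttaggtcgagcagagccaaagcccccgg
Wnt8b, chr19:44493222-44493521, strand +: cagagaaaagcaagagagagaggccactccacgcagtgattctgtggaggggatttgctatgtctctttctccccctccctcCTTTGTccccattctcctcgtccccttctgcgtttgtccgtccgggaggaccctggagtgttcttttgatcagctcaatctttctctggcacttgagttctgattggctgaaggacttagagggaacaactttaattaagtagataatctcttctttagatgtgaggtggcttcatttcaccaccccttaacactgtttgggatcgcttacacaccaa

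Of these 5 promoters, Tcf7l1 held CTTTGT or its complement at position -28 from the start and Wnt8b at position -168, and the others held neither. Of all 32851 promoters of this length, 31.2% held at least 1 of these runs (16.0% CTTTGA and 18.7% CTTTGT), and so did 11 of the 47 member promoters (23.4%), a share below that of all. These letters are a match to a short run and not a site. GC content was 84.3% for Wnt4, 76.7% for Wnt6, 75.3% for Tcf7l1, 66.3% for Wnt10b and 48.3% for Wnt8b. Over all 13 promoters of genes called higher it ran from 44.3% to 84.3%, a range that takes in Wnt10b and Wnt8b. Only 2 genes called lower had a promoter here. The median was 67.3% over the member promoters and 52.7% over all promoters. The pair CG occurred 51 times in Wnt4, 31 in Wnt6, 34 in Tcf7l1, 18 in Wnt10b and 6 in Wnt8b.

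The Wnt ligands moved in both directions. Of 19 ligands 11 were tested, 6 were higher and 2 lower in embryonic spheres, against 36.0% and 17.4% of all genes, shares that also apply to the roles that follow. With genes dim in 1 group at their lower bound, differences ran from -4.40 for Wnt10b to 3.98 for Wnt4, a wider range than in any other role. Wnt4, a ligand known in thymic epithelium, kidney and gonad, had signals of -0.81 and -0.56 in the adult samples and 2.76 and 3.83 in the embryonic ones. Both embryonic arrays lay far above both adult arrays. The difference was 3.98 (SE 0.45, adjusted p = 0.00742). The other Wnt4 probe also rose, by 3.09 (SE 0.54, adjusted p = 0.0113 over all probes).

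Wnt5a and Wnt5b are ligands best known for the non-canonical branch, and both rose. Wnt5a gave -0.15 and -0.09 in adult and 1.23 and 1.90 in embryonic spheres, a difference of 1.69 (SE 0.36, adjusted p = 0.0164). This call was lost after centring on the tested genes. Wnt5b gave -0.94 and -2.43 on the adult arrays, of which only array 1 was well above background, and 0.27 and 0.33 on the embryonic arrays. The adult arrays lay farther from each other than the higher of them lay from the embryonic arrays. The difference was 1.98 (SE 0.54, adjusted p = 0.029), and it was lost after normexp correction and after centring.

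Another 3 ligands were measured only in embryonic spheres, so their change is a lower bound. Wnt10a, a ligand of skin, hair and tooth epithelium, gave -5.28 and -4.42 in the adult samples, both dim, and -0.25 and 0.38 in the embryonic ones. It was higher in embryonic spheres, at least 8.26-fold (adjusted p = 0.00737). Wnt7b, an epithelial ligand of lung and kidney, gave -2.92 and -3.09 against -0.10 and 0.69 and was at least 8.48-fold higher (adjusted p = 0.00753). Wnt6, also an epithelial ligand, gave -3.25 and -4.46 against -1.47 and -0.88 and was at least 3.43-fold higher (adjusted p = 0.0129). Wnt6 and Wnt10a are next to each other among the protein-coding genes of chromosome 1. For such a bound, each dim array entered with its own signal or with the lowest signal that counted as well above background there, whichever was higher, and the bound belongs to this scaling. An adjusted p printed with a bound comes from limma on the dim signals as they were, and does not test the bound. A gene with a bound entered the test through 1 group alone. Of the calls, 5 of the 19 higher and all 3 lower have only a bound. Under normexp correction the fitted difference was 1.40 for Wnt10a, 1.09 for Wnt7b and 0.56 for Wnt6, less than those bounds, and Wnt6 was not called.

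Wnt10b and Wnt8b went the other way. Wnt10b, a canonical ligand known for holding back fat cell formation and for hair follicle growth, gave 1.75 and 2.14 in the adult samples and -5.15 and -3.68, both dim, in the embryonic ones. Adult spheres had at least 21.1-fold more of it (adjusted p = 0.00737), and its neighbour on chromosome 15, Wnt1, was not called. Wnt8b, a ligand of the developing forebrain, gave 0.84 and -0.60 against -4.18 and -3.71, at least 5.95-fold more in adult spheres (adjusted p = 0.00841). The 2 adult arrays differed for Wnt8b by more than 1 unit, yet both lay above both embryonic arrays. A second Wnt8b probe gave -2.11 and -3.95 against -5.26 and -3.74, with adult array 1 alone well above background and the groups overlapping, and entered no test. Under normexp correction the fitted differences were -2.68 and -1.31, smaller than the bounds, and both were still called.

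Dim embryonic signals were common beyond this pathway. Of 1503 probes for sensory receptors (the olfactory, vomeronasal, taste and trace amine families), adult array 1 had 51.4% well above background, adult array 2 had 23.2%, embryonic array 1 had 6.12% and embryonic array 2 had 2.26%. Limma called 286 of the 329 tested receptor genes lower in embryonic spheres, against 17.4% of all genes tested. A gene with signal on the adult arrays alone could enter this test, so the filter itself favours a call of lower here. This signal moves with the adult-only signals of Wnt10b, Wnt8b and Dkk4, and with those of Sox7, Kremen2, Fgf20 and the endothelial markers described further on, and its part in them was not tested.

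The other 3 tested ligands were not called. Wnt1 gave 0.34 and 0.60 against 1.06 and 1.06 (difference 0.59, 95% interval -0.18 to 1.36), and its second probe was dim on all 4 arrays. Wnt9a overlapped between the groups, with a difference of 0.69 (95% interval -0.48 to 1.87). Wnt11, a non-canonical ligand, gave -0.61 and 0.65 in adult and -1.48 and -1.26 in embryonic spheres. It was lower on both embryonic arrays (difference -1.39, SE 0.49, adjusted p = 0.0576), and it was called lower after centring on the tested genes, with an intensity trend in eBayes, and when a signal was asked on all 4 arrays. Of the 8 untested ligands, Wnt2b, Wnt3, Wnt3a and Wnt9b were dim on every array. Wnt2, Wnt7a and Wnt8a were well above background on adult array 1 alone, and Wnt16 on adult array 1 and embryonic array 1. For Wnt2 the spot on adult array 2 was marked as an outlier and left out.

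**Figure D2:**
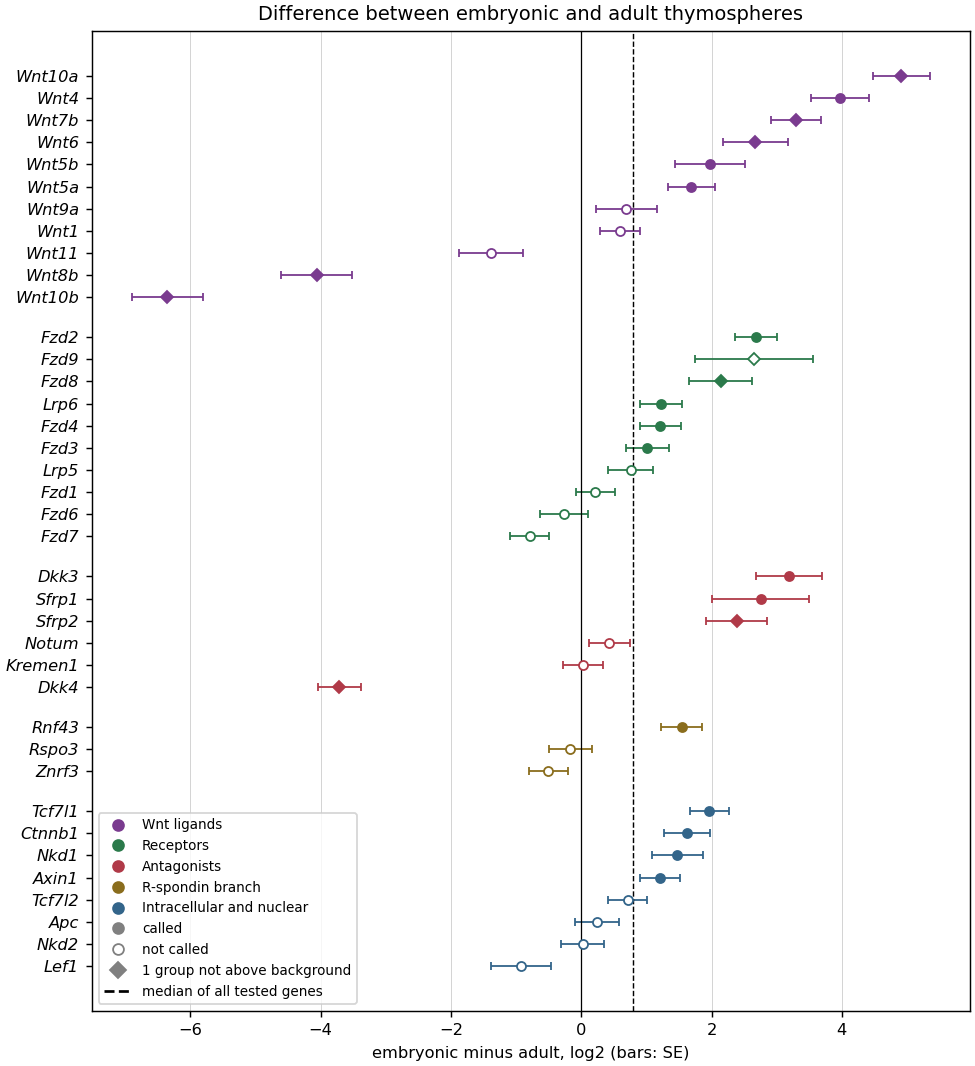
Embryonic minus adult difference in log2 signal (horizontal axis, bars are the standard error of limma) for the 38 tested genes by role; filled symbols were called, diamonds had no signal above background in 1 group, and the dashed line is the median of all tested genes, 0.79. Diamonds mark fitted values whose size is not measured, and among the circles Wnt4 stands farthest right at 3.98.

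Among Frizzled receptors and Lrp co-receptors 5 of 10 tested genes rose and none fell. Fzd2, a receptor for Wnt5a among others, gave -0.01 and -0.30 in the adult samples and 2.65 and 2.41 in the embryonic ones. The arrays within each group lay close together and the groups far apart. The difference was 2.68 (SE 0.32, adjusted p = 0.00761). A second Fzd2 probe was well above background on embryonic array 1 alone and entered no test.

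Smaller rises were seen for Fzd3, Fzd4 and Lrp6. Fzd4, which also serves as receptor for norrin, gave -0.69 and -0.97 against 0.47 and 0.31 (difference 1.21, SE 0.31, adjusted p = 0.0253). Fzd3, a receptor of planar polarity and axon guidance, gave -1.33 and -1.77 against -0.60 and -0.47 (difference 1.02, SE 0.33, adjusted p = 0.0458). For both, every embryonic signal lay above every adult one. The co-receptor gene Lrp6 gave 1.57 and 1.70 against 3.04 and 2.67 (difference 1.22, SE 0.32, adjusted p = 0.0263), and its second probe rose by 1.62 (SE 0.39, adjusted p = 0.0209 over all probes). After centring on the tested genes none of these 3 was called. Lrp6 was also not called after quantile normalization or in the deposited value table, and Fzd3 and Fzd4 not after normexp correction. Fzd3 was called in only 7 of 16 alternatives, and its call was also lost with an intensity trend in eBayes (0.0558) and without embryonic array 1 (0.0581) or 2 (0.0877).

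Fzd8 was measured only in embryonic spheres. It gave -3.12 and -4.30 in the adult samples, both dim, and -1.83 and -1.32 in the embryonic ones. It was higher in embryonic spheres, at least 2.49-fold (adjusted p = 0.0189), with a fitted difference of 0.28 and no call under normexp correction, and no call after centring on the tested genes. Fzd9 was dim in adult spheres too, and its embryonic arrays lay far apart at -3.03 and -0.21. It was not called (adjusted p = 0.0536), but it was called higher after quantile normalization, in the deposited value table and after centring on all probes.

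Fzd1 was well above background on all 4 arrays and was not called. It gave 2.36 and 2.27 against 2.51 and 2.55, a difference of 0.21 (95% interval -0.53 to 0.96). The interval leaves out a doubling on this scale, but the value moved with the scaling, to 1.40 and a call after centring on all probes and to -0.63 after quantile normalization. Lrp5 (0.76, 95% interval -0.11 to 1.62) and Fzd6 (-0.26, 95% interval -1.18 to 0.65) were not called either. Fzd7 gave 0.33 and 0.43 against -0.52 and -0.31 (difference -0.79, SE 0.30, adjusted p = 0.0721). It was called lower after centring on the tested genes and when a signal was asked on all 4 arrays, but after centring on all probes its difference was 0.39. Fzd5 was well above background on adult array 1 alone and Fzd10 on embryonic array 1 alone, and neither was tested.

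Secreted antagonists moved in both directions. Of 6 tested genes of this role, 3 rose and 1 fell. Dkk3, a divergent member of the Dickkopf family, gave 1.76 and 1.57 in the adult samples and 4.18 and 5.54 in the embryonic ones. The embryonic arrays differed by more than 1 unit and both stood far above the adult ones. The difference was 3.19 (SE 0.51, adjusted p = 0.0102).

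Sfrp1 and Sfrp2 bind Wnt proteins outside the cell. Sfrp1 gave -1.94 and -4.16 in adult spheres, the second of them dim, and -0.07 and -0.52 in embryonic spheres (difference 2.76, SE 0.75, adjusted p = 0.0288). Sfrp2 gave -3.22 and -3.31, both dim, against -0.29 and -1.47 and was higher in embryonic spheres by at least 4.17-fold (adjusted p = 0.0137). Neither was called under normexp correction, with fitted differences of 0.68 and 0.76, and Sfrp1 was also not called after centring on the tested genes.

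Dkk4, an inhibitor that binds Lrp5 and Lrp6 and is known from hair and tooth placodes, gave -0.38 and -0.70 in adult spheres and -4.46 and -4.05, both dim, in embryonic spheres. Adult spheres had at least 3.77-fold more of it (adjusted p = 0.00737), and the call was lost under normexp correction, where the fitted difference was -0.89.

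Notum, an extracellular enzyme that removes the lipid from Wnt proteins, and Kremen1, a Dickkopf receptor, gave signals on all 4 arrays. Notum stood at 3.25 and 3.57 against 3.75 and 3.92 (difference 0.43, 95% interval -0.36 to 1.22). Kremen1 stood at 2.26 and 2.08 against 2.09 and 2.29 (difference 0.02, 95% interval -0.75 to 0.79), and its groups overlapped. Neither was called.

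The remaining antagonists entered no test. Dkk2 (-5.18 and -4.32 against -4.24 and -3.82) and Sfrp4 were dim on every array, and Sfrp5 and Wif1 were well above background on adult array 1 alone. Dkk1, the founding Dickkopf inhibitor, gave -5.17, -4.33 and -5.22 on both adult arrays and embryonic array 1, all dim, and 0.02, well above background, on embryonic array 2. A single array of 4 thus carried the Dkk1 signal.

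The R-spondin branch was mostly dim. Of its 9 genes 3 were tested and only Rnf43, a ubiquitin ligase that removes Frizzled receptors from the cell surface, was called. Rnf43 gave -1.34 and -1.62 against -0.01 and 0.14 (difference 1.54, SE 0.31, adjusted p = 0.0147), a call lost after normexp correction and after centring on the tested genes. Its relative Znrf3 gave -1.81 and -1.78 against -2.26 and -2.35, the last of them dim, and was not called (difference -0.51, 95% interval -1.25 to 0.24). Znrf3 was called lower after centring on the tested genes, but after centring on all probes its difference was 0.68. The ligand Rspo3 was well above background on all 4 arrays, with 1.07 and 0.87 against 1.01 and 0.60. The groups overlapped, and the difference was -0.17 (95% interval -0.98 to 0.65). Lgr5, a receptor that marks stem cells of several epithelia, gave -4.04 and -3.55 against -2.98 and -2.27 and was dim on every array, as were Lgr6, Rspo2 and Rspo4. Lgr4 and Rspo1 were well above background on adult array 1 and embryonic array 1, so neither entered a test.

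Inside the cell 4 of 8 tested genes were called higher and none lower, and the 4 include Nkd1, whose probes disagree. Tcf7l1, a TCF factor that mostly represses targets in the absence of beta-catenin, gave -1.67 and -1.69 in the adult samples and 0.23 and 0.35 in the embryonic ones. The arrays of each group were nearly alike. The difference was 1.97 (SE 0.30, adjusted p = 0.00951).

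Ctnnb1, which encodes beta-catenin, gave 2.51 and 2.45 against 3.80 and 4.41 (difference 1.62, SE 0.35, adjusted p = 0.0168). Axin1, the scaffold of the destruction complex, gave -0.56 and -0.72 against 0.49 and 0.64 (difference 1.20, SE 0.30, adjusted p = 0.0241). The groups did not overlap in either. After centring on the tested genes neither was called. Ctnnb1 was also not called after quantile normalization or in the deposited value table, nor Axin1 after normexp correction.

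Apc gave -0.77 and -1.24 against -0.89 and -0.64 and was not called (difference 0.24, 95% interval -0.61 to 1.08). Tcf7l2 gave -0.57 and -0.68 against 0.03 and 0.14 (difference 0.71, 95% interval -0.04 to 1.46). It was higher on both embryonic arrays by less than the median of all genes. The Dishevelled-binding inhibitor Nkd2 overlapped between the groups (difference 0.02, 95% interval -0.82 to 0.86).

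Some results hung on the probe. In a fit of all 17081 tested probes, 35.4% were called higher and 16.7% lower, and of the 44 tested probes of these genes 21 (47.7%) were higher and 5 (11.4%) lower. Of 6 genes with more than 1 tested probe, 4 had the same call on each probe, namely Wnt4, Lrp6, Nkd2 and Tcf7l2. Nkd1, a feedback inhibitor of canonical signalling, had probes called in opposite directions. One, taken for the gene, gave -1.47 and -1.96 against 0.09 and -0.58 (difference 1.47, SE 0.39, adjusted p = 0.0268 over genes). The other gave -0.68 and 0.79 against -3.14 and -3.73, both dim, and was called lower (adjusted p = 0.00979 over probes). No direction is therefore given for Nkd1, although it is among the 19 genes counted as higher.

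Lef1, a TCF-family factor that is also a canonical target, had probes that differed in the call. The probe taken for the gene gave -0.76 and -1.28 against -1.41 and -2.47 and was not called (difference -0.92, SE 0.46, adjusted p = 0.136). The other gave -0.49 and -0.80 against -2.60 and -2.75 and was called lower (difference -2.03, SE 0.32, adjusted p = 0.00963 over probes). On both probes every embryonic array lay below every adult array, and embryonic array 2 was dim.

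Axin2, the target gene most often read as a sign of canonical signalling, was not measured well enough for a test. One probe gave -4.80 and -4.45 against -2.96 and -2.46, with only embryonic array 1 well above background. The other gave -1.92 and -2.58 against -3.98 and -3.70, with only adult array 1 well above background. The probes thus ordered the groups in opposite ways.

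**Figure D3:**
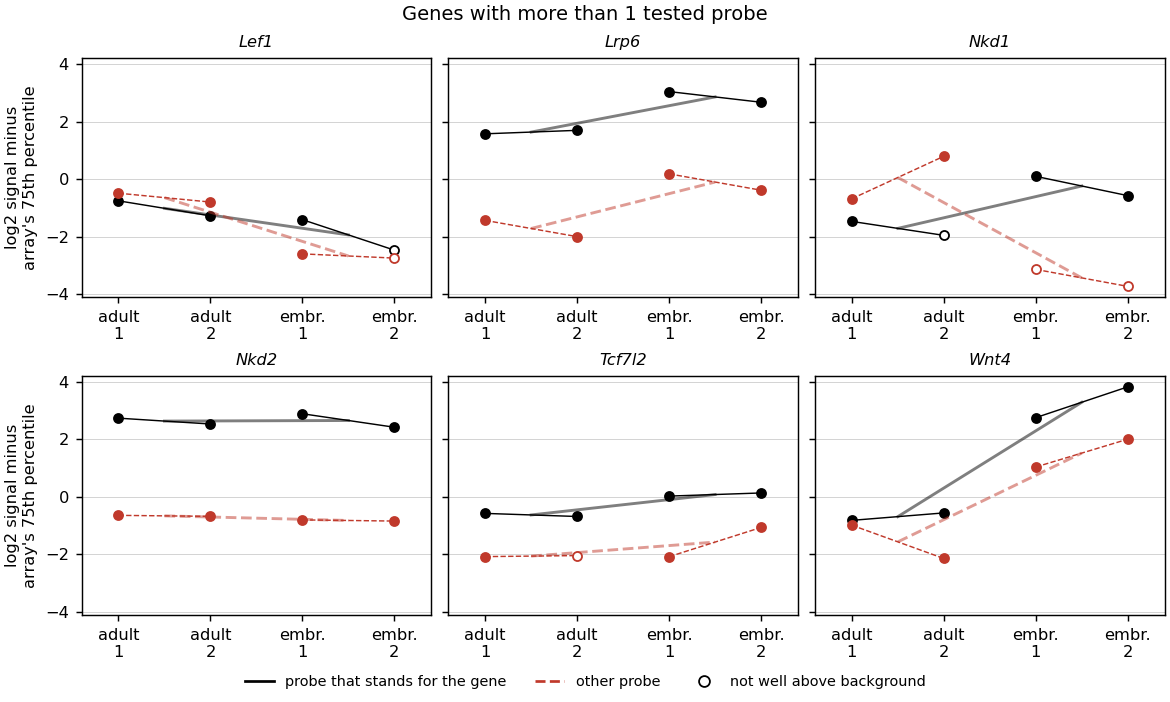
Normalised log2 signal (vertical axis) by array for the 6 genes with more than 1 tested probe; black is the probe taken for the gene, red dashed lines are the other probe, thin lines join the arrays of a group, thick lines the group means, and open points were not well above background. The Nkd1 probes cross, the lines of both Lef1 probes slope down, and those of both Wnt4 and Lrp6 probes slope up; levels of different probes are not comparable.

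Other genes of the pathway were read from 5 lists. Of 108 tested, 50 were called higher and 11 lower in embryonic spheres, and the count of each list stands against 36.0% higher and 17.4% lower over all genes. In the list for Wnt secretion and core transduction 17 of 22 tested genes rose and none fell, with a median difference of 1.40 (1.38 with the gene dim in 1 group at its bound) against 0.79 for all genes. Its casein kinase genes Csnk1e (1.78, SE 0.39, adjusted p = 0.0169) and Csnk1a1 (1.68, SE 0.33, adjusted p = 0.0143) rose. So did Tnks2 (1.72, SE 0.32, adjusted p = 0.0129), whose product tankyrase marks Axin for degradation. Siah1a, a ubiquitin ligase gene, was at least 2.59-fold higher (adjusted p = 0.0189).

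In the list of non-canonical and planar polarity genes 12 of 24 tested rose and 3 fell, with a median of 1.29. Celsr1, a cadherin of planar polarity, rose on both embryonic arrays (difference 3.44, SE 0.31, adjusted p = 0.00737). Ror2, a receptor for Wnt5a, gave -0.75 and -1.59 against 1.92 and 1.91 (difference 3.09, SE 0.39, adjusted p = 0.00776). Both groups were well separated for each of them. The small GTPase gene Rhou rose by 2.17 (SE 0.33, adjusted p = 0.00954), and Daam2, a formin gene, was at least 3.39-fold higher (adjusted p = 0.0128). The 3 that fell, named after their values were seen, were Ror1, a relative of Ror2 (difference -2.42, SE 0.53, adjusted p = 0.0176), and Mapk8 and Plcb1 (adjusted p = 0.00737 for each). The Ror1 probe was dim on embryonic array 2. The probes taken for Mapk8 and Plcb1 were dim on both embryonic arrays. Each of these 2 genes had another probe well above background on 1 embryonic array, so their calls hang on the probe.

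Among transcription partners of beta-catenin 6 of 14 tested genes rose and 3 fell, with a median of 0.84. The list holds inhibitors as well as activators, so its counts give no direction for target genes. Bcl9, which couples beta-catenin to the Pygopus proteins, rose by 2.12 (SE 0.34, adjusted p = 0.0103). The Groucho-related gene Tle5 rose by 1.79 (SE 0.38, adjusted p = 0.0158) and the acetyltransferase gene Crebbp by 1.66 (SE 0.50, adjusted p = 0.0389). Sox7 was at least 1.88-fold lower in embryonic spheres (adjusted p = 0.0109). The others that fell, named after their values were seen, were the Groucho-type gene Tle4 (difference -2.37, SE 0.59, adjusted p = 0.0232) and Cby1 (difference -1.49, SE 0.42, adjusted p = 0.0324). The probes taken for Tle4 and Cby1 were dim on embryonic array 2.

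Of 16 tested genes for other secreted or membrane modulators 6 rose and 3 fell, with a median of 0.62. Lrp4, a relative of Lrp5 that binds sclerostin-type inhibitors, was higher in embryonic spheres, at least 6.04-fold (adjusted p = 0.00761). Dkkl1, dim on both adult arrays, was called higher (adjusted p = 0.0281). The glypican gene Gpc3 rose by 1.72 (SE 0.47, adjusted p = 0.0294) and Tspan12, a partner of Fzd4, by 0.91 (SE 0.30, adjusted p = 0.0494). Dact3, a Dishevelled antagonist gene, was lower (difference -1.07, SE 0.33, adjusted p = 0.0414), and Kremen2 was at least 2.13-fold lower in embryonic spheres (adjusted p = 0.0215). The other that fell, named after its values were seen, was Cthrc1 (difference -2.60, SE 0.30, adjusted p = 0.00753). Its probe was dim on embryonic array 2.

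Of the common Wnt target genes 9 of 32 tested rose and 2 fell, with a median of 0.47, below that of all genes. The shares, 28.1% and 6.25%, also lay below the 36.0% and 17.4% of all genes. The cyclin gene Ccnd1 gave 2.51 and 2.19 against 4.31 and 4.47 (difference 2.04, SE 0.32, adjusted p = 0.00967). Bmp4 rose by 1.99 (SE 0.33, adjusted p = 0.0105), and Cdh1, which encodes the epithelial adhesion protein E-cadherin, rose by 2.08 (SE 0.40, adjusted p = 0.0137). Cdh1 also stands among the thymic epithelial markers below and is counted in both lists. Fgf20 was at least 2.40-fold lower in embryonic spheres (adjusted p = 0.0106). The other that fell, named after its values were seen, was Tnfrsf19 (difference -2.48, SE 0.55, adjusted p = 0.0176). Its probe was dim on embryonic array 2, where another Tnfrsf19 probe was well above background. Most of these targets are also controlled by other pathways, and 21 of the 32 were not called.

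Markers of cell types moved with the groups as well, and their counts stand against the same 36.0% higher and 17.4% lower. Of 12 tested thymic epithelial markers 8 rose and 1 fell in embryonic spheres, and the summed signal of the 14 on the array was 213 and 125 times the 75th percentile in the adult samples and 417 and 609 times in the embryonic ones. Foxn1, the defining transcription factor of these cells, gave -2.23 and -3.23 (the second dim) against -0.81 and -0.50 and rose by 2.07 (SE 0.43, adjusted p = 0.0157), while Krt14 was the marker that fell. Krt18 made up 49.3% to 71.1% of the sum on an array. Aire and Psmb11, markers of mature epithelium, were well above background on adult array 1 alone, but for Psmb11 the spot on adult array 2 was an outlier and left out. Of 14 fibroblast and mesenchyme markers 2 rose and 1 fell, with sums of 498 and 493 against 887 and 552. Of 10 tested haematopoietic markers 3 rose and 1 fell (sums 85.3 and 111 against 130 and 119). Itgam, not called, made up 57.4% to 83.3% of the sum. Ptprc, the common leukocyte antigen gene, was well above background on adult array 1 alone.

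Of 8 tested endothelial markers none rose and 5 fell (sums 22.8 and 24.8 against 19.3 and 28.8). Cdh5, Esam, Robo4 and Cldn5 fell and were dim on both embryonic arrays, while Kdr, at 3.44 and 3.89 against 3.95 and 4.66, was not called and made up 47.6% to 87.9% of the sum on an array. The median of the 8 was -1.39 with the 4 dim genes at their bound. Among pericyte and smooth muscle markers 3 of 8 tested rose and 3 fell (sums 37.3 and 40.4 against 65.2 and 91.5). None of 3 tested neural crest and glia markers was called, with limma as before (sums 16.2 and 17.1 against 13.2 and 18.7). The part of these markers in the Wnt pathway differences was not tested.

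**Figure D4:**
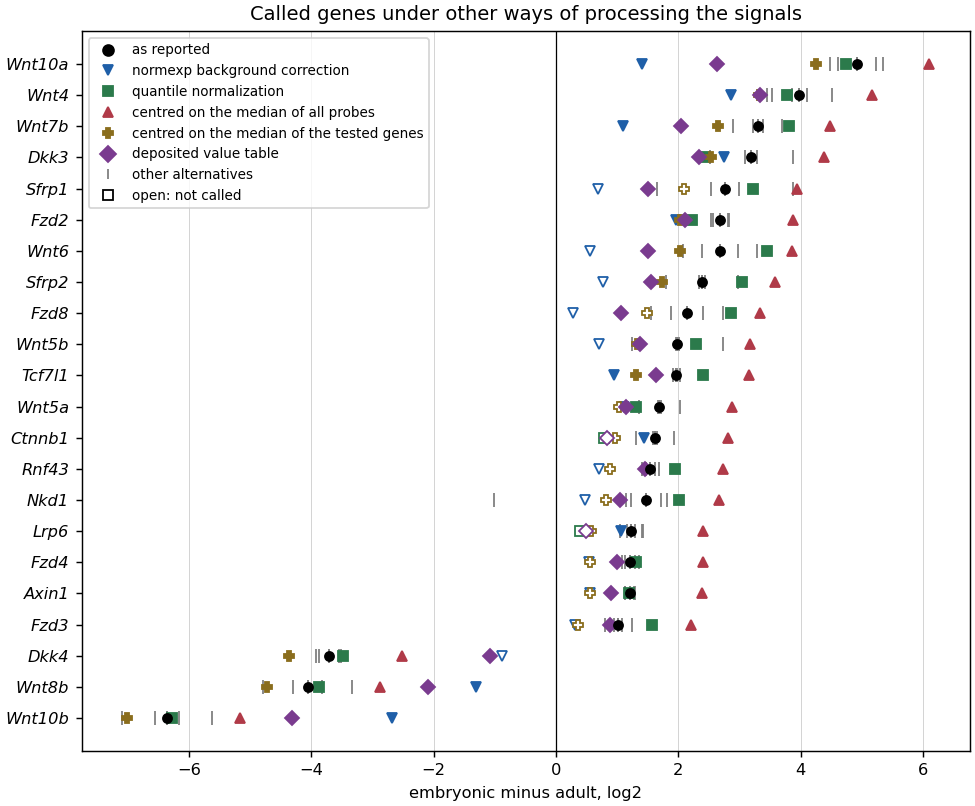
Embryonic minus adult difference in log2 signal (horizontal axis) for the 22 called genes as reported (black) and under the alternatives; coloured symbols are 5 other scalings, open where the gene was not called, and grey ticks are the remaining alternatives. Under the coloured alternatives every gene kept its sign, while the grey tick of Nkd1 below 0 is the mean of its probes, -1.01.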

How the data were processed

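RNA of each of 4 samples (25 ng, labelled with Cy3) was hybridised to an Agilent 1-colour array, all on 1 slide. The scanner files deposited by the authors hold intensity per spot, made per the file headers by Feature Extraction 10.7.3.1 (Agilent) with background subtraction and spatial detrending within each array. A second, deposited table has linear intensity values with array medians of 34.4, 35.0, 35.7 and 35.1. Its scaling and centring are, in the sources used here, not given. It served as an alternative.

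Control spots and outlier spots (185 and 2756 on the adult arrays, 120 and 95 on the embryonic arrays) were left out, and no spot was saturated. Between 35.7% and 71.6% of spots were well above background. Signals were taken as log2 minus the 75th percentile of each array, which was 132, 66.0, 126 and 61.5, and spots of a probe were averaged. Through RefSeq accessions without versions 28026 of 55681 probes (50.3%) received a GRCm38.p6 symbol. The array design names mm9, so that annotation served for names and neighbours only.

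Each gene was represented by the probe well above background on most arrays, then by the highest mean signal. Embryonic minus adult was fitted on all 4 arrays with limma 3.58.1 in R 4.3.3 (lmFit, eBayes, Benjamini-Hochberg), a fit also tested on simulated data. The number of arrays limits the precision. In eBayes the variance of each gene is drawn towards that of all genes tested. The printed SE, interval and p-value therefore rest on both. Values are printed for called genes, up to 12 in each direction measured on all 4 arrays and 8 with a bound, for genes whose probes disagree, and for Axin2, Lef1, Nkd1, Lgr5, Ctnnb1, Rspo3, Wnt4, Wnt5a, Wnt5b, Fzd1, Sfrp1, Dkk2 and Dkk3 whatever their values. From each other pathway list up to 3 called genes a direction measured on all 4 arrays, and up to 3 with a bound, are named. For other genes values were added after the values were seen. The genes and lists were chosen with earlier results of these data known. Alternatives were normexp (offset 50, on median in place of mean spot signals), quantile normalization, centring on all probes or on tested genes, the value table, other filters and probe rules, eBayes with a trend or robust prior, a replicate block, and leaving out each array.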

Additional observations from a re-analysis of the deposited data

How the results depend on the processing

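The direction of the 22 called genes held under each of the 16 alternatives that gave a value, except that Nkd1 turned to -1.01 with the mean of its probes. Of the 38 tested genes (60 with no filter, 24 with the strict filter), the number called higher, 19 as reported, was 9 with normexp, 29 and 8 with centring on all probes or on tested genes, 8 with no filter on dim probes, 11 with signal asked on all 4 arrays (the strict filter), and 0 to 19 with 1 array left out. The number called lower, 3 as reported, was 6 with centring on tested genes and 0 to 5 with 1 array left out, where 0 came without either adult array. For the other pathway genes, 50 higher and 11 lower as reported, the number higher was 29 with quantile normalization, 83 and 14 with the centrings, 32 with the value table, 10 with no filter and 0 to 55 with 1 array left out. The number lower was 5 with normexp, 7 with centring on all probes, 5 with no filter, 2 with signal asked on all 4 arrays and 0 to 14 with 1 array left out. With no filter more dim genes were tested, and with the strict filter fewer genes were. The cause of the other changes was not tested. Shares of all genes called under the alternatives are not given, so these counts cannot be read against all genes. With the replicate block 19 genes were higher, 18 of them as reported, and 4 lower, and the adjusted p of Fzd3 was 0.0616. The numbers do not mark pairs in the labels, and same-numbered arrays deviated together only weakly (correlation 0.0708 over 13375 genes). The probe of highest mean signal, an alternative chosen after seeing the data, gave the same 19 and 3. Genes near background have only bounds, and 10 of the 60 genes had no signal well above background on any array.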
